A study of Sparus aurata with 30 samples.

Results

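The exocrine pancreas makes the enzymes that digest food in the gut, and its acinar cells store them as inactive precursors before secretion. In the gilthead sea bream, Sparus aurata, which is farmed for food, pancreatic tissue is not a single compact organ: it is spread through the abdominal fat and runs into the liver along branches of the portal vein. In mouse, the acinar enzyme genes are driven by the PTF1 complex, in which the basic helix-loop-helix protein Ptf1a is joined by Rbpjl, the pancreatic form of the Notch pathway factor Rbpj. RNA from a whole piece of sea bream liver can therefore hold acinar transcripts beside those of hepatocytes.

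The genes described here are the exocrine pancreas genes of the sea bream annotation, chosen by their identifier: carboxypeptidases of the cpa1 to cpa5 and cpb1 kind, elastases, chymotrypsins, trypsin, lipases, amylase, colipase, phospholipase, gp2 and the regulators ptf1a and rbpjl. The rule found 3 genes of the 25722 in the count files. They are cpb1, the precursor of carboxypeptidase B, which removes basic amino acids from the ends of peptides, and the regulators rbpjl and ptf1a. The other names of the rule matched no identifier, and 15526 identifiers are LOC numbers. The RefSeq gene table of assembly fSpaAur1.1 gives 5135 of the LOC numbers another symbol, and 2 of these fit the rule: LOC115585985 is listed as cpa4, a carboxypeptidase of the A kind, and LOC115567116 as prss1, a trypsinogen. These 2 are given beside the members and not counted among them.

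The values came from RNA-seq of liver, intestine and head kidney (the blood-forming and immune organ of fish) of sea bream fed one of 2 diets. The SDY diet contained spent dry yeast from brewing at 30%. It stood in for part of the protein sources of the control diet, 31.4% of plant protein and 10% of fish meal. Each tissue had 5 SDY and 5 control libraries, prepared from specimens picked at random. Strain, age, sex, feeding time and tanks were not given in the labels, so the p-values cover the specimen-to-specimen spread only. The comparisons used 28 libraries, because the rule leaves out head kidney control replicates 1 and 3, which held 926 and 16459444 counts. The 28 libraries held 9276705 to 20580440 counts (median 17301416.5), and the lowest of these was liver SDY replicate 3. All 17 matched hepatocyte genes had a median of at least 1 CPM in liver. Levels are given as CPM, counts scaled to a common library total with no further correction.

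In the annotation of assembly fSpaAur1.1, cpb1 lies on chromosome 19 from 21829724 to 21836052, rbpjl on chromosome 6 from 4090204 to 4114370 and ptf1a on chromosome 21 from 4226441 to 4227881, each on the plus strand. LOC115585985 lies on chromosome 8 from 21546448 to 21552319 on the minus strand. Neither cpb1, ptf1a nor LOC115585985 overlaps another gene. The span of rbpjl overlaps matn4, a matrix protein gene on the other strand, over 5987 bases from 4090204 to 4096190. Counting used no strand option, so reads of the shared stretch counted for both genes and the level of rbpjl is uncertain to that extent.

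The carboxypeptidase gene cpb1 was one of the abundant transcripts of the liver libraries, and the enzyme gene LOC115585985 (cpa4) followed it. cpb1 stood at 14763, 5593, 18738, 7833 and 9240 CPM in SDY livers 1 to 5, against 3629, 11666, 7681, 12174 and 8956 CPM in control livers 1 to 5. These levels rest on 58751 to 220474 reads in each liver library. In SDY livers, replicates 1 and 3 were highest and above every control, and replicate 2 was lowest. Among the controls, replicate 1 was far below the rest. The groups overlapped, with SDY replicates 4 and 5 among the controls. LOC115585985 stood at 2991, 1204, 3389, 1264 and 1863 CPM in SDY livers and at 659, 2352, 1667, 2608 and 1975 CPM in control livers. Its 2 highest livers were the same as for cpb1, and its lowest was again control replicate 1. The trypsinogen gene LOC115567116 (prss1) was close to absent, with at most 8 reads in any library.

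The regulators were far lower than the enzyme genes. rbpjl stood at 16.1, 6.55, 17.7, 8.31 and 8.07 CPM in SDY livers 1 to 5, against 3.58, 9.91, 6.23, 8.86 and 5.40 CPM in control livers 1 to 5. SDY replicates 1 and 3 were again above every control and control replicate 1 was again lowest. ptf1a stood at 2.21, 0.27, 1.40, 0.59 and 0.17 CPM in SDY livers and at 0.12, 1.17, 0.51, 0.79 and 0.75 CPM in control livers. These are 2 to 33 reads in a library, so neighbouring ptf1a values cannot be told apart at this depth. Per kilobase of the counted gene span, introns included, the median liver level was 1437 CPM for cpb1, 327 CPM for LOC115585985, 0.468 CPM for ptf1a and 0.339 CPM for rbpjl.

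**Figure D1:**
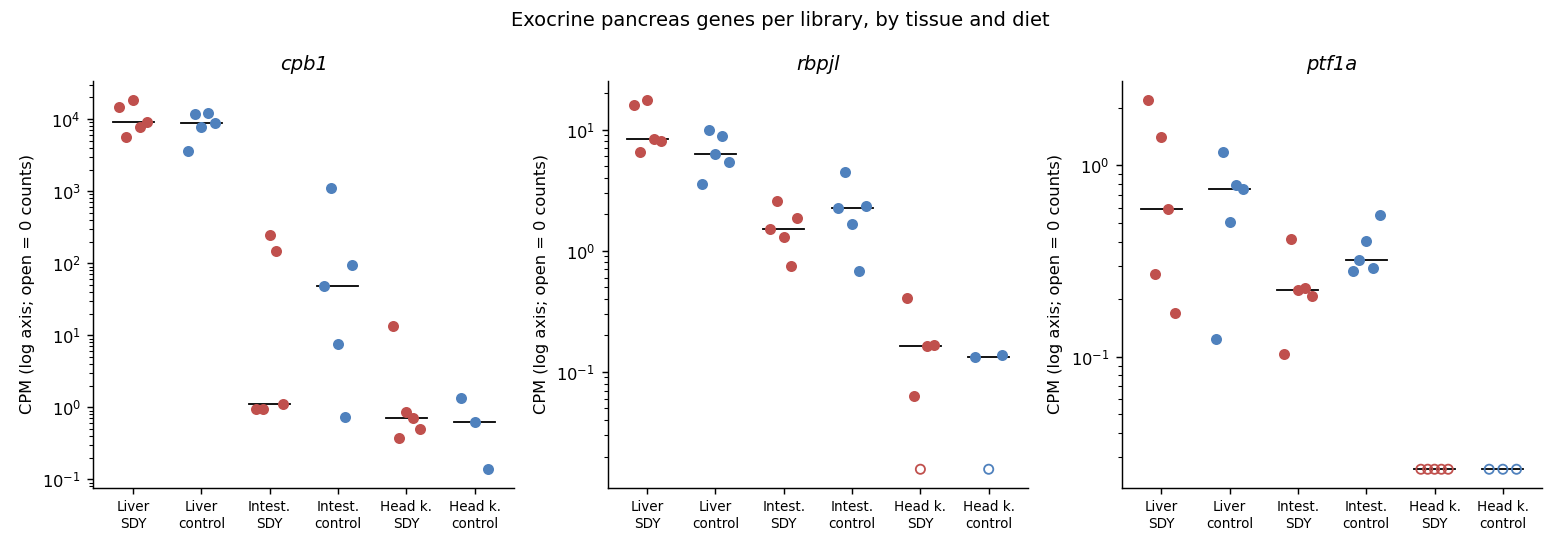
Level of each gene in every library compared, in CPM on a log axis, for liver, intestine and head kidney with SDY left of control. Each point is a library, open where it had 0 counts, and each line a group median; cpb1 reaches 18738 CPM in liver and stays between 0.138 and 13.3 CPM in head kidney.

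The diet comparison in liver asked whether the yeast diet went with another level of these genes. None of the members passed the threshold, a Benjamini-Hochberg adjusted p under 0.05 over all genes tested in edgeR's quasi-likelihood test. cpb1 averaged 11233 ± 5388 CPM in SDY livers and 8821 ± 3450 CPM in control livers (SD, n = 5 each), a log2 fold change of 0.34 (SE 0.46, edgeR adjusted p = 0.827). In such bulk libraries a different number of acinar cells and a different amount of RNA per acinar cell cannot be told apart. rbpjl averaged 11.3 ± 5.13 CPM in SDY livers and 6.79 ± 2.58 CPM in control livers, a log2 fold change of 0.74 (SE 0.41, unadjusted p = 0.0954, edgeR adjusted p = 0.534). All 5 SDY livers were above the control median of rbpjl, 2 of them above every control. The groups overlapped, and the share of all genes with such an order was not computed. ptf1a had a log2 fold change of 0.47 (SE 0.74, adjusted p = 0.853 in edgeR), which was -0.29 without SDY replicate 1. For LOC115585985 it was 0.20 (SE 0.47, edgeR adjusted p = 0.909), and it was -0.05 without SDY replicate 3 and -0.02 without control replicate 1. The count was thus 0 of 3 members, where 0% of the 15010 genes tested were called. At an unadjusted p under 0.05 it was 0 of 3 members and 10.7% of all genes, and DESeq2 called 0 members and 103 of 17116 genes.

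**Figure D2:**
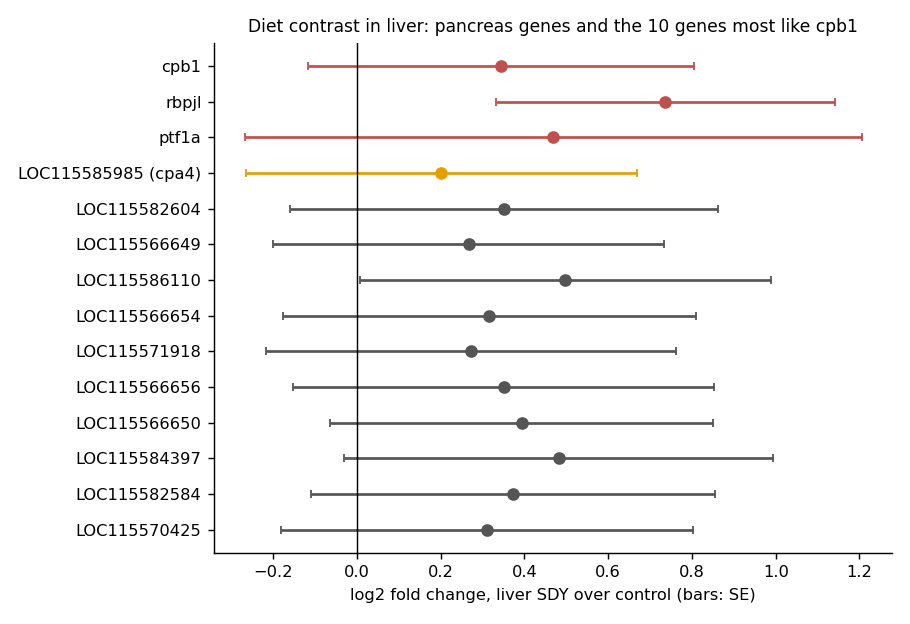
Log2 fold change of SDY over control in liver for the members, LOC115585985 (cpa4) and the 10 genes most like cpb1, with SE bars from edgeR. None passed the threshold, and 0% of all genes tested did. All values lie between 0.20 and 0.74.

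The genes varied together among the 10 livers. The correlation of log2 CPM of cpb1 with that of LOC115585985 was r = 0.979 (permutation p = 4e-05, adjusted 0.0002; Spearman's rho 0.976, permutation p = 2e-05, adjusted 0.0001). For cpb1 with rbpjl it was r = 0.911 (permutation p = 0.0005, adjusted 0.00125; rho 0.879, permutation p = 0.00166, adjusted 0.00415), and for cpb1 with ptf1a r = 0.841 (permutation p = 0.00278, adjusted 0.00348; rho 0.855, permutation p = 0.00252, adjusted 0.0042). The regulators rbpjl and ptf1a gave r = 0.783 (permutation p = 0.007, adjusted 0.007; rho 0.818, permutation p = 0.00582, adjusted 0.00582). Without the 2 livers farthest from the median of the first gene, r was 0.952, 0.763, 0.730 and 0.618 for these pairs in the order given. The values of a pair share a library and its total, and 5 relations were computed. Livers of both diets were pooled in each, and the relation within a diet was not examined. The highest liver stood 5.16-fold above the lowest for cpb1, 5.14-fold for LOC115585985 and 4.93-fold for rbpjl, a wider range than the difference between the diet means.

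The summed level of the hepatocyte genes ran the other way. It was lowest in SDY replicates 1 and 3, at 45611 and 40977 CPM, the 2 livers with most cpb1. In the 5 controls it lay between 59712 and 68686 CPM. The most abundant genes weigh most in this sum. They were fgb, LOC115590283 (fga), fgg and f2, with liver medians of 12914, 11804, 8173 and 7393 CPM. Single hepatocyte genes were not tested against cpb1. Across the 10 livers cpb1 and this sum gave r = -0.755 (permutation p = 0.0016, adjusted 0.00267), with rho -0.830 (permutation p = 0.00486, adjusted 0.00582). Without the 2 livers farthest from the median of log2 cpb1, control replicate 1 and SDY replicate 3, r was -0.663. SDY replicate 1 stayed in that value, and r without SDY replicates 1 and 3 was not computed. cpb1 and the hepatocyte sum are both shares of one library total, and the part of that in the relation was not tested. None of the 17 hepatocyte genes was called between the diets, where 0% of all genes were. Of the 17, 12 lay below 0, and the median log2 fold change of the 17 was -0.15 against -0.00 over all genes. The part of acinar content in other liver values was not tested.

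The ratio of rbpjl to cpb1 ran from 0.603 to 1.17 reads per 1000 cpb1 reads over the livers. It was 1.09, 1.17, 0.943, 1.06 and 0.873 rbpjl reads per 1000 cpb1 reads in SDY livers 1 to 5, against 0.987, 0.849, 0.811, 0.728 and 0.603 in control livers 1 to 5. Of the SDY livers, 3 lay above every control, and the mean log2 ratio was 0.378 higher in SDY livers (exact permutation test, two-sided, p = 0.0318, adjusted 0.0635 over 6 ratio tests). It did not pass after adjustment. The ratio of LOC115585985 to cpb1 was 161 to 215 reads per 1000 in SDY livers and 182 to 220 in control livers, a mean log2 difference of -0.11 (exact permutation p = 0.254, adjusted 0.305). For ptf1a, 0.0183 to 0.150 reads per 1000 in SDY livers and 0.0340 to 0.100 in control livers gave a mean log2 difference of -0.15 (exact permutation p = 0.802, adjusted 0.802).

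The 3 members passed the test as higher in liver than in intestine and head kidney, although single libraries of liver and intestine overlapped for rbpjl and ptf1a. Fitted over the 28 libraries in edgeR, liver minus intestine was 7.42 on the log2 scale for cpb1 (SE 1.29, adjusted p = 1.21e-05), 3.42 for rbpjl (SE 0.37, adjusted p = 6.27e-09) and 2.61 for ptf1a (SE 0.48, adjusted p = 6.18e-05). LOC115585985 was 7.31 higher (SE 1.21, edgeR adjusted p = 6.25e-06). Thus 3 of 3 members were called higher, where 35.4% of the 20296 genes tested were called higher and 43.4% lower. With at most 0.548 CPM in intestine and 0 in head kidney, ptf1a entered this test through its liver levels alone. Its direction was thus set by the filter on low counts, and its call adds no support. Without intestine control replicate 2, cpb1 was 8.69 higher and LOC115585985 8.66. Relative to the median of all genes, which was -0.18 with TMM scaling and -1.38 with plain library totals, cpb1 was 7.60 and 7.52 higher, rbpjl 3.60 and 3.58, and ptf1a 2.79 and 2.77. The overlapping gene matn4 was 2.34 higher in liver than in intestine (edgeR adjusted p = 2.12e-07). Its own level was 1.72 to 4.88 CPM in liver and 0.776 to 2.89 CPM in intestine, and its part in the rbpjl counts was not tested there.

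Against head kidney, 3 of 3 members were again called higher, where 37.5% of all genes were called higher and 37.5% lower. In head kidney alone rbpjl and ptf1a were too low to be tested. They entered through other tissues, so their direction here was set by the filter on low counts. The log2 difference was 14.23 for cpb1 (SE 1.95, edgeR adjusted p = 3.54e-07) and 7.62 for rbpjl (SE 0.59, edgeR adjusted p = 9.37e-12). Without head kidney SDY replicate 1, cpb1 was 15.42 higher. ptf1a had 0 reads in all 8 head kidney libraries, which allows up to 3 of 132275031 counts over the group. The 0.756 CPM of ptf1a over all liver reads was 33.3-fold above that limit of 0.0227 CPM. The counting error of the liver value and its spread between livers, 0.124 to 2.21 CPM, are not in this figure. Head kidney held 1.84 to 11.8 CPM of matn4 beside at most 0.409 CPM of rbpjl, so in that tissue matn4 reads gave few counts to rbpjl.

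In intestine cpb1 was present in some libraries and nearly absent in others, a 1510-fold range. It stood at 0.931, 0.943, 246, 149 and 1.095 CPM in SDY intestines 1 to 5, against 48.2, 1100, 7.57, 0.729 and 94.9 CPM in control intestines 1 to 5. LOC115585985 ranged from 0.0972 to 313 CPM over the same libraries and was highest in the same library, control replicate 2. The regulators had no such range. rbpjl stood at 1.5, 2.59, 1.29, 0.748 and 1.88 CPM in SDY intestines and at 2.24, 4.43, 1.67, 0.680 and 2.34 CPM in control intestines. The overlapping gene matn4 stood at 0.776 to 2.89 CPM in intestine, and its part in these rbpjl counts was not tested. ptf1a was between 0.103 and 0.548 CPM in all 10, from 2 to 11 reads.

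In head kidney cpb1 stood at 13.3, 0.378, 0.864, 0.710 and 0.497 CPM in SDY replicates 1 to 5, against 1.33, 0.626 and 0.138 CPM in control replicates 2, 4 and 5. SDY replicate 1 stood far above the other 7, which did not exceed 1.33 CPM. For cpb1 the order of median levels was liver, intestine and head kidney, but 5 of 10 intestine libraries lay within the head kidney range. For rbpjl, intestine and head kidney did not overlap, while intestine control replicate 2 lay within the liver range. Intestine against head kidney was not tested.

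Set against cpb1, the regulators had lower ratios in liver than in intestine, whereas for the second enzyme gene no difference was detected. cpb1 itself stood at 3629 CPM or more in every liver and at 1100 CPM or less in every intestine. A gene at the same level in both tissues would thus also have a lower ratio in liver. The regulator ratios therefore restate the tissue difference of cpb1 and show nothing particular to the regulators. rbpjl reached 0.603 to 1.17 reads per 1000 cpb1 reads in the 10 livers, against 4.03 to 2750 in the 10 intestines, and every liver was below every intestine. The mean log2 ratio differed by -6.90, lower in liver (permutation test, two-sided, p = 2e-05, the smallest that 100000 resamples can give, adjusted 6e-05). For ptf1a the difference was -8.15 (permutation p = 2e-05, adjusted 6e-05), again with no overlap. The share of all genes whose ratios to cpb1 do not overlap was not computed. LOC115585985 had 161 to 220 reads per 1000 cpb1 reads in liver and 133 to 284 in intestine, a log2 difference of -0.16 (permutation p = 0.217, adjusted 0.305). Some intestines had as few as 15 cpb1 reads, so single ratios there are imprecise, and 0.5 read was added to both counts before the logarithm.

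**Figure D3:**
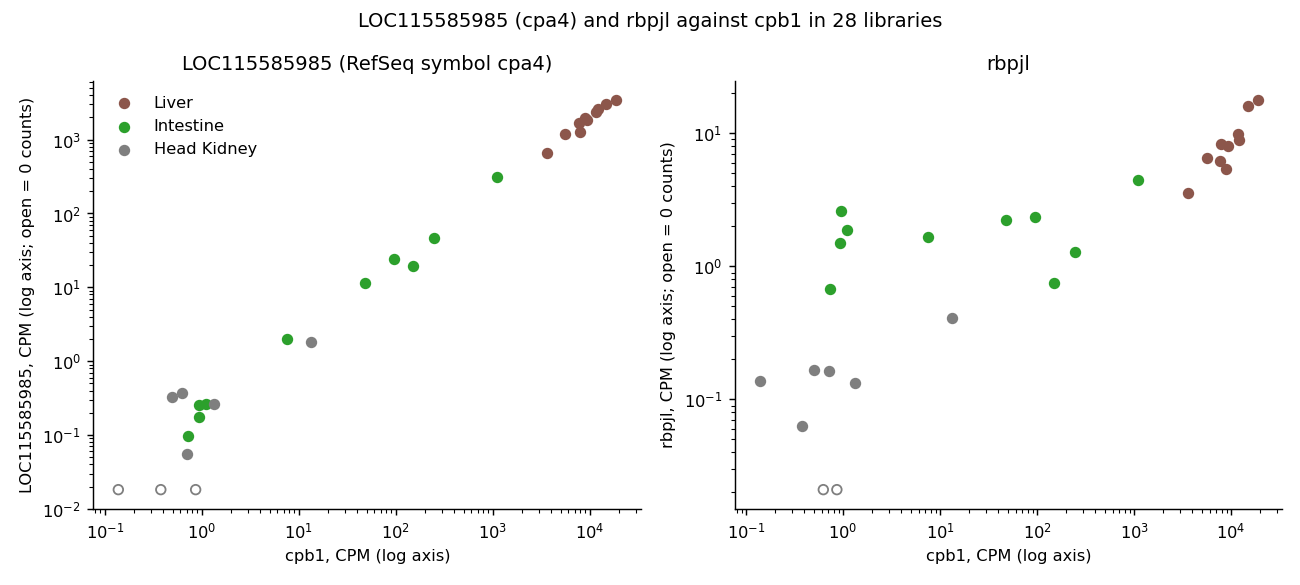
Level of LOC115585985 (cpa4, left) and of rbpjl (right) against cpb1 in each of 28 libraries, in CPM on log axes, coloured by tissue, with open points for 0 counts. LOC115585985 follows cpb1 from 0.729 to 18738 CPM across liver and intestine, whereas rbpjl stays between 0.680 and 4.43 CPM in intestine while cpb1 varies 1510-fold. The part of the overlapping gene matn4 in the rbpjl counts of intestine was not tested.

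No member was called between diets in the other tissues. In intestine, where ptf1a was too low to be tested, 0 of 2 members were called and 0% of 18221 genes were. At an unadjusted p under 0.05 it was 0 of 2 members and 6.5% of all genes, and DESeq2 called 55 genes and no member. cpb1 had a log2 fold change of -1.59 (SE 1.88, edgeR adjusted p = 0.932), which was 0.97 without control replicate 2, and rbpjl one of -0.46 (SE 0.50, edgeR adjusted p = 0.930). LOC115585985 had -2.32 (SE 1.84, edgeR adjusted p = 0.906), which was 0.41 without that library. In head kidney the call was 0 of 1 member tested, where 0.00583% of 17151 genes were called. At an unadjusted p under 0.05 it was 0 of 1 member and 11.8% of all genes, and DESeq2 called 248 genes and gave the members no adjusted p. cpb1 had a log2 fold change of 2.03 (SE 1.44, edgeR adjusted p = 0.574), which was -0.34 without SDY replicate 1. The difference of the diet effect between liver and intestine was 1.91 for cpb1 (SE 1.97, edgeR adjusted p = 0.996), 1.19 for rbpjl (SE 0.69, edgeR adjusted p = 0.925) and 1.101 for ptf1a (SE 0.94, edgeR adjusted p = 0.982). That is 0 of 3 members, where 0.00985% of 20296 genes were called. At an unadjusted p under 0.05 it was 0 of 3 members and 5.82% of all genes, and DESeq2 called 21 genes and no member. Without intestine control replicate 2, the value for cpb1 was -0.63.

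The 10 genes whose pattern was most like that of cpb1 were all LOC identifiers with no other symbol, so their products are not named here. The measure was Pearson's r on log2(CPM + 1) over the 28 libraries, among 7104 genes averaging at least 10 CPM in liver. It is a description that the difference between tissues dominates. The 10 genes had r from 0.998 to 0.999, and from 0.928 to 0.988 over the 10 livers alone. They stood between 1371 and 30225 CPM in liver. First was LOC115582604 on chromosome 6, at 10944 ± 5839 CPM in SDY livers and 8463 ± 3692 CPM in control livers (SD, n = 5 each). The highest level was that of LOC115566656 on chromosome 17, at 18642 ± 9758 CPM in SDY livers and 14657 ± 6062 CPM in control livers, but its span overlaps 6 other genes. In all, 25 genes reached r = 0.99, among them LOC115585985 (cpa4) at rank 12, vmo1 at rank 14 and LOC115581101 (ela3l, an elastase) at rank 22. LOC115581101 stood at 1356 ± 645 CPM in SDY livers and 1519 ± 822 CPM in control livers. Its liver diet log2 fold change of -0.11 (edgeR adjusted p = 0.955) was on the other side of 0 from those of cpb1, LOC115585985 and the 10 genes. These 3 genes with symbols were named after their values were seen. For rbpjl r with cpb1 was 0.902 and for ptf1a 0.711 over the same libraries.

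Some of the 10 lie near each other. LOC115566649, LOC115566650, LOC115566654 and LOC115566656 fall within 46217 bases of chromosome 17, from 26018372 to 26064588, a stretch that holds 9 genes. LOC115566654, from 26043810 to 26049931, lies inside LOC115566656, from 26018372 to 26054260, on the same strand. Reads of LOC115566654 thus also counted for LOC115566656, and the 2 are not independent matches to cpb1. LOC115582604 and LOC115582584 are 9948 bases apart on chromosome 6. LOC115570425 starts 102761 bases after the end of cpb1 on chromosome 19. In the liver diet comparison the 10 genes had log2 fold changes of 0.27 to 0.50 with a median of 0.35, all above 0. Of these, 0 of 10 were called, where 0% of all genes were (lowest edgeR adjusted p = 0.756, lowest unadjusted p = 0.332). The 10 genes were chosen for following cpb1, whose own value was 0.34.

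cpb1 and these 10 genes took a large share of each liver library. The share was 16.1, 6.46, 20.4, 7.72 and 10.7% of all counts in SDY livers 1 to 5, against 3.38, 11.9, 8.52, 14.1 and 9.44% in control livers 1 to 5. SDY replicates 1 and 3 were above every control and control replicate 1 was lowest, with the rest mixed. The mean was 12.3 ± 5.87% in SDY livers and 9.47 ± 4.04% in control livers. These shares count the reads of LOC115566654 again in LOC115566656. Counting only the 9 genes of the 11 that overlap no other gene, the mean share was 9.49 ± 4.44% in SDY livers and 7.26 ± 3.16% in control livers. In intestine the share of all 11 genes ran from 0.00109 to 1.22%, and in head kidney from 0.000117 to 0.0162%.

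**Figure D4:**
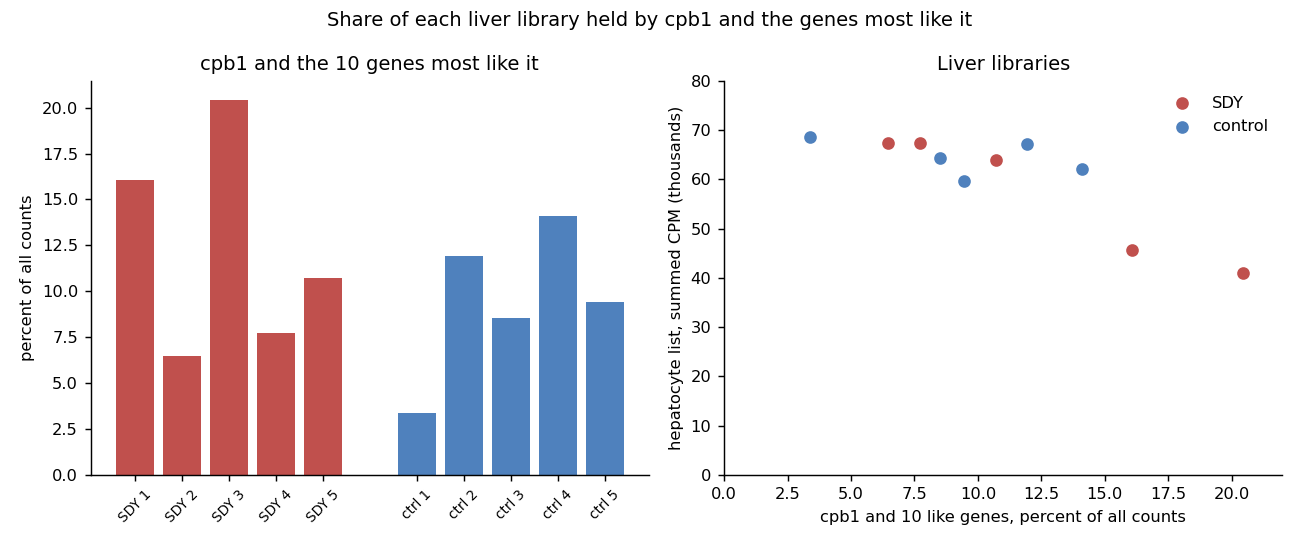
Left, percent of all counts held by cpb1 and the 10 genes most like it in each liver library (SDY, then control). Right, the same percent against the summed CPM of the hepatocyte list; the 2 livers with the highest share, 16.1 and 20.4%, had the lowest sums, 45611 and 40977 CPM.

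Genes that serve acinar cells but also other cells were followed in a list of which 19 could be matched. Other names on it, among them spink1, sycn, zg16 and cuzd1, matched no identifier. The summed level of the 19 was 1656 to 2046 CPM in SDY livers and 1011 to 1562 CPM in control livers. The sum was not tested, and the share of all genes whose SDY and control livers do not overlap was not computed. For the means, 89.7% of the difference between the sums came from 2 genes, xbp1 and LOC115581771 (spink4). The most abundant was the unfolded protein response factor xbp1, whose span overlaps ccdc60, at 845 ± 176 CPM in SDY livers and 573 ± 122 CPM in control livers (log2 fold change 0.51, SE 0.24, unadjusted p = 0.0518, edgeR adjusted p = 0.468). In the liver diet comparison 0 of 19 were called, where 0% of all genes were. Of the 19, 13 lay above 0 and 3 had an unadjusted p under 0.05 in edgeR, as did 10.7% of all genes. The median was 0.18 against -0.00 over all genes. The smallest p was that of LOC115591458 (aqp12, a water channel of acinar cells in mouse), at 43.6 ± 8.67 CPM in SDY livers and 27.3 ± 9.68 CPM in control livers (log2 fold change 0.68, SE 0.20, unadjusted p = 0.00533, edgeR adjusted p = 0.343). Next was the endoderm transcription factor gata4, at 21.6 ± 3.28 CPM in SDY livers and 32.2 ± 12.1 CPM in control livers (log2 fold change -0.54, SE 0.19, unadjusted p = 0.0151, edgeR adjusted p = 0.387). Both genes overlap a gene on the other strand.

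Between liver and intestine, 12 of the 19 were called higher and 3 lower, where 35.4% of all genes were called higher and 43.4% lower. The median was 2.07 against -0.18 over all genes. With plain library totals 10 of the 19 were called higher and 6 lower, with a median of 0.84 against -1.38 over all genes. The shares of all genes called with plain library totals are not given here. Against head kidney 17 were called higher and 1 lower, where 37.5% of all genes were called higher and 37.5% lower. In head kidney alone the filter on low counts passed 9 of the 19. The rest entered through other tissues, which largely set their direction. With plain library totals 14 of the 19 were called higher and 2 lower, with a median of 5.64 against -1.50 over all genes. Over the 10 livers 10 of the 19 had an r above 0 with cpb1 and 9 below 0, from -0.450 for gata6 to 0.920. LOC115581771 (spink4, a protease inhibitor of the Kazal kind) stood at 398 ± 205 CPM in SDY livers and 246 ± 82.7 CPM in control livers and was 7.27 higher in liver than in intestine on the log2 scale (edgeR adjusted p = 9.77e-10). It had r = 0.917 with cpb1 over the 10 livers. The highest r was that of LOC115586681 (tmed6), of a family of cargo carriers between endoplasmic reticulum and Golgi. It was 0.920, that of the endoplasmic reticulum protein gene erp27 0.817 and the secretory cell regulator bhlha15 0.789. bhlha15 was 4.43 higher in liver than in intestine (edgeR adjusted p = 3.53e-12), and its span overlaps tecpr1. pdx1, needed for pancreas formation in mouse and zebrafish, was 6.96 higher in liver (edgeR adjusted p = 1.47e-21) at 43.5 ± 10.6 CPM in SDY livers and 38.6 ± 5.56 CPM in control livers. It had r = -0.146 with cpb1 over the livers, and its span overlaps urad. These 5 genes, and xbp1, were chosen after their values were seen.

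The endocrine pancreas genes that could be matched were scarce in the same livers. Of 24 islet genes, 6 had 0 reads in every liver, among them gcg (glucagon) and LOC115590247 (sst5, a somatostatin). In the other tissues LOC115590247 was also at 0 in all 10 intestines and 8 head kidneys, and gcg in 9 of 10 intestines and 8 head kidneys, so their 0 is not particular to liver. In liver 1 of the 24 had a median of at least 1 CPM. The list summed to 4.40 to 7.76 CPM in SDY livers and 5.87 to 12.5 CPM in control livers, against 105 to 196 CPM in the intestine libraries. In intestine the highest medians were those of LOC115571433 (pyyb), scg3 and scg2, at 52.9, 35.3 and 24.1 CPM. Which cells gave the intestine sum was not tested. Of 17 islet genes tested between liver and intestine, 2 were called higher, mafa and mafb, and 15 lower, 3 of these with 0 reads in every liver. Of all genes, 35.4% were called higher and 43.4% lower. The filter on low counts passed 16 islet genes in intestine alone and 2 in liver alone. Most thus entered through other tissues, which largely set their direction. mafa stood at no more than 0.431 CPM in liver and 0.155 CPM in intestine. With plain library totals 1 of the 17 was called higher and 16 lower, with a median of -5.49 against -1.38 over all genes. The gene mafb was then called lower, at -0.57, which is above that median of all genes. In the liver diet comparison 2 could be tested and 0 were called, where 0% of all genes were. mafb stood at 3.70 ± 1.29 CPM in SDY livers and 7.59 ± 2.12 CPM in control livers (log2 fold change -1.01, SE 0.26, edgeR adjusted p = 0.343), and scg3 had a log2 fold change of 0.43 (SE 0.41, edgeR adjusted p = 0.746). mafb is also made by macrophages and scg3 by other endocrine cells. The names ins, insa and insb (insulin), sst, ppy and pyy were on the islet list but matched no identifier. Insulin was thus not analysed here, and the list lacks these hormone genes.

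**Figure D5:**
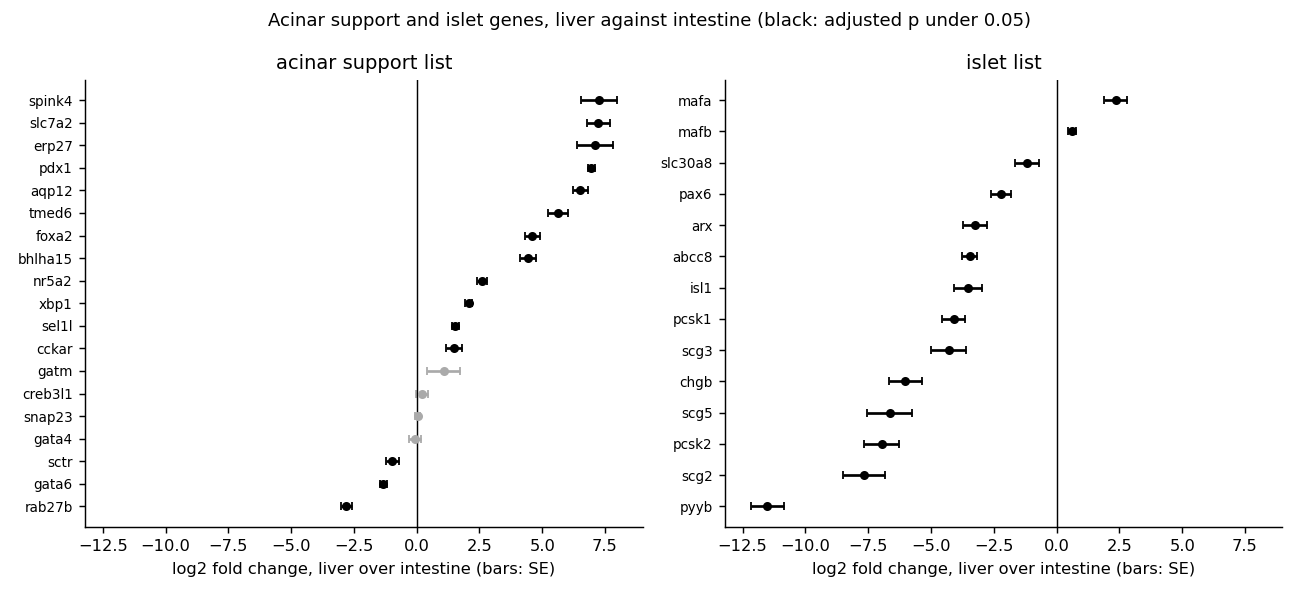
Log2 fold change of liver over intestine with SE bars for the 19 acinar support genes (left) and the 14 islet genes tested that had a read in liver (right), TMM-scaled. Of the acinar support genes 12 were called higher and 3 lower, where 35.4% of all genes were called higher and 43.4% lower. Of the islet genes drawn mafa and mafb alone lie above 0. With plain library totals mafb was at -0.57, where the median of all genes was -1.38. Most islet genes passed the filter on low counts through other tissues, and mafa stood at no more than 0.431 CPM in liver.

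Other carboxypeptidase genes, which do not mark acinar cells, served for comparison. Of 9 matched, 8 could be tested in the liver diet comparison and 0 were called, where 0% of all genes were. The median of the 8 was 0.15 against -0.00 over all genes. Between liver and intestine 7 of 8 were called higher and 1 lower, where 35.4% of all genes were called higher and 43.4% lower. With plain library totals the list gave 4 and 3, with a median of 1.57 against -1.38 over all genes. Its highest liver medians were 223 CPM for LOC115577334 (cpb2) and 175 CPM for cpn1. In intestine these 2 genes had medians of 0.752 and 16.1 CPM. Of 10 matched pancreatic and biliary duct genes, 8 could be tested in the liver diet comparison and 0 were called, where 0% of all genes were.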

How the data were processed

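Per the labels' protocols, TRIzol was used to extract RNA, and a directional kit with poly(A) selection gave the libraries. The authors deposited raw counts per gene, made with featureCounts 1.5.3 on assembly fSpaAur1.1 with features of type mRNA, overlapping genes each counted and no strand option, per the file headers. Trimming with Trim Galore 0.4.4 and alignment with HISAT2 2.1.0 are per the submitters' processing notes. The members and lists were chosen with earlier results of these data known. Here edgeR 4.0.16 (R 4.3.3) was run with filterByExpr, TMM and the quasi-likelihood test, each tissue alone for diet and 28 libraries in 6 group means between tissues. SE came from the F statistic. DESeq2 1.42.0, plain totals, no filter, a replicate block and each library left out were alternatives. The procedure was tested on simulated data. Named genes were the members, the 2 acinar support and 2 islet genes of smallest p in the liver diet comparison, list genes called between diets, and the 10 most like the members averaging at least 10 CPM in liver, of which there was 1, cpb1. Gene overlaps are of spans, by at least 1 base. No duplicates were found among replicates (chi-square per gene at least 20.4).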

Additional observations from a re-analysis of the deposited data

Results flagged for a closer look

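In 24 sets of 5 libraries, each a gene or share in a tissue and diet, checked for a library far from the rest, 6 were flagged. Chance flags about 1 in 20 groups only where values follow a normal distribution. Values as skewed as these CPM can be flagged more often, so 6 of 24 cannot be set against that rate. The 6 fall in 2 libraries, and the values of a library are not independent of each other. Intestine control replicate 2 held 1100.35 CPM of cpb1 (next highest control 94.9), 312.8 CPM of LOC115585985 (next 24.1) and a 1.22% share of cpb1 with its 10 like genes (next 0.124%). Its hepatocyte sum was 547 CPM against 180 to 403 CPM in the other 9 intestines, and its islet and adipose sums, 194 and 1877 CPM, lay within the others' 105 to 196 and 229 to 4640 CPM. Their part in the high value was not tested. Head kidney SDY replicate 1 held 13.3 CPM of cpb1 (next highest SDY 0.864), 1.81 CPM of LOC115585985 (next 0.331) and a share of 0.0162% (next 0.000853%). Its hepatocyte sum of 104 CPM lay within the 52.5 to 125 CPM of the other 7.

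Head kidney control replicate 3, which the comparisons leave out, held 1122 CPM of cpb1, 1.82 CPM of rbpjl, 0.122 CPM of ptf1a and 208 CPM of LOC115585985, each above the 8 head kidney libraries compared, whose highest were 13.3, 0.409, 0 and 1.81 CPM. Its hepatocyte sum was 31441 CPM, against 52.5 to 125 CPM in those 8.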

How the results depend on the processing

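Of 697 alternative values, 683 kept their direction and side of the threshold, 12 changed sign and 2 moved, and the counts of members called changed under none of the alternatives run. Over all genes DESeq2 called 103, 55 and 248 between diets in liver, intestine and head kidney, against 0, 0 and 1 with edgeR. Scaled by the summed member counts, of which cpb1 is nearly all, the liver diet value was -0.00034 for cpb1 and -0.11 for LOC115585985. In TMM-scaled CPM the median summed member level was 16704 in SDY livers and 17207 in control livers, against 9248 and 8962 on plain totals, so the order of the medians turned. With all 10 head kidney libraries the cpb1 diet value there was -6.75 (edgeR adjusted p = 0.39). Leaving out each library in turn, liver diet values ran from -0.29 to 0.77 for ptf1a, -0.046 to 0.53 for LOC115585985, 0.06 to 0.66 for cpb1 and 0.51 to 1.01 for rbpjl. In intestine they ran from -2.80 to 0.97 for cpb1 and -3.84 to 0.41 for LOC115585985, in head kidney from -0.34 to 2.93 for cpb1, and for the liver minus intestine diet effect from -0.63 to 3.15 for cpb1 and -0.21 to 4.05 for LOC115585985. The causes were not tested beyond the libraries left out. Replicate numbers are shared by the diets, but correlations of same-numbered libraries ran from -0.12 to 0.44 and 2 of 5 liver controls, 1 of 5 intestine controls and 2 of 3 head kidney controls were closest to their own number. Whether a number stands for the same fish or tank is not given in the labels, and so few pairs cannot settle it. With the replicate block no member was called in a diet comparison, and the head kidney value of cpb1 was -0.26. Depth limits ptf1a, with at most 33 reads in a library.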
